A study of Mus musculus with 16 samples.

Results

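The 10 genes described here handle cholesterol and modified lipoproteins in macrophages and other cells: Abca1, Abcg1, Nr1h3, Apoe, Cd36, Msr1, Olr1, Scarb1, Trem2 and Mertk. They were chosen by symbol, as a set of cholesterol efflux and scavenger receptor genes, with earlier results of these data known. All 10 were found among the 19439 genes listed in at least 1 of 16 RNA-seq libraries. Each library came from a lesion of ear skin of a separate BALB/c mouse aged 8 weeks. All mice received imiquimod (IMQ), a drug that stimulates innate immunity and is used on mouse skin to model psoriasis, and no library of untreated skin was used here. LPC mice also received lysophosphatidylcholine (LPC), a phospholipid left when a phosphatidylcholine loses a fatty acid chain, as 10 µl of a 10 mM solution into the skin. Their controls received 10 µl of saline as vehicle. Injections were planned daily for 6 days, so mice killed on day 4 had not received the full course. The 4 groups were LPC with imiquimod at day 7, vehicle with imiquimod at day 7, LPC with imiquimod at day 4 and vehicle with imiquimod at day 4, with 4 mice each.

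Cells that take up modified lipoproteins or dead cells gain cholesterol that they cannot break down, and they export it. The exporters ABCA1 and ABCG1 hand cholesterol to apolipoproteins and to high-density lipoprotein, and their genes are switched on by the oxysterol-sensing liver X receptors, of which Nr1h3 encodes LXR-alpha. Uptake runs through scavenger receptors, a structurally mixed group that includes the class A receptor MSR1, the class B receptors CD36 and SR-B1 (Scarb1) and the lectin-like receptor LOX-1 (Olr1). TREM2, a lipid-binding receptor of macrophages and microglia, and MERTK, a receptor tyrosine kinase that mediates the engulfment of dead cells, act on the same cargo. In skin, CD36 and SR-B1 are also made by cells other than macrophages, such as endothelium and adipocytes for CD36.

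The deposited values were RSEM expected counts (estimated counts that need not be whole) and FPKM (fragments scaled to transcript length and library size). Totals lay between 18704197 and 20131513 expected counts per library. Levels within a gene are given below as CPM, counts relative to a library size scaled by TMM, a normalisation that balances libraries on the bulk of their genes. Differences come from edgeR's quasi-likelihood test over 15782 genes, and a gene is said to have risen or fallen only where its Benjamini-Hochberg adjusted p over all those genes was below 0.05. Keratinocyte markers summed to between 9260 and 22600 FPKM per library, which fits the skin label, but markers of deeper tissue varied widely: the 14 skeletal muscle markers summed to between 202 and 23900 FPKM and the 10 adipocyte markers to between 65.1 and 4190 FPKM. In whole tissue, fewer cells of a type and less RNA per cell cannot be told apart.

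Promoters of 7 of the 10 genes were matched by symbol in RefSeq sequences of GRCm38.p6, 10 promoters in all, and the 250 bases before each annotated start were searched on both strands for an LXR element and for the AP-1 motif. AP-1 is a family of transcription factors induced by stress and inflammation. The LXR element was searched as NGGTNANNNNNGGTNA, a pair of half-sites with 4 bases between them, and it was present in 204 of 32851 promoters of this length (0.621%). The AP-1 motif was searched as TGANTCA, which takes any base at its centre, and this pattern was present in 2217 of them (6.75%). The Abca1 promoter (chr4:53159896-53160145, minus strand) is shown because it is the promoter of the set that held the LXR element, here as its reverse complement. Those of Olr1 (chr6:129507166-129507415, minus strand) and Trem2 (chr17:48346151-48346400, plus strand) held a match to the AP-1 pattern as searched. Its centre base was G in Olr1 and A in Trem2. Each is written 5′ to 3′ on the strand of its gene, ends at the base before the start, and has the match in capitals. The matches lay 67 to 52, 60 to 54 and 9 to 3 bases before the start in the order shown, and the motifs did not overlap. For Abca1 and Olr1 the annotated start used lies inside the gene span given below, and so do their matches. A match describes these letters and shows no binding.
Abca1: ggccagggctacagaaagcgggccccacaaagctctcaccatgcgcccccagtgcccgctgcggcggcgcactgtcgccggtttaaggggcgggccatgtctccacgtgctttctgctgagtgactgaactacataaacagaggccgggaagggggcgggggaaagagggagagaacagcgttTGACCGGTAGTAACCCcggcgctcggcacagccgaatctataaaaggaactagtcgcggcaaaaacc
Olr1: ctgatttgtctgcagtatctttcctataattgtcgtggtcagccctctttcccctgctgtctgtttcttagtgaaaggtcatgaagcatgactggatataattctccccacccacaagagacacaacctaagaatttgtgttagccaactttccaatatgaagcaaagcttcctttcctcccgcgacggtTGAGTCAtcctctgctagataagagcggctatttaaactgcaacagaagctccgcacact
Trem2: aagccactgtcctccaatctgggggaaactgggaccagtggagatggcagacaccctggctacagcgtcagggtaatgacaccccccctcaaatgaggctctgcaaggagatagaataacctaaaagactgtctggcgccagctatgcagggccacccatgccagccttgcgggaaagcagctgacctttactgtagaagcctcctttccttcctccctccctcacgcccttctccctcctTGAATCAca

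At day 7, Olr1 rose with LPC and was the member that passed the test. Msr1 had the next largest difference and lay just short of the threshold. In total, 1 of the 10 genes was called, against 3.83% of all genes tested in either direction and 2.38% in the higher one. Among the 10, 4 had an unadjusted p below 0.05, all higher with LPC (Olr1, Msr1, Abcg1 and Nr1h3), against 11.3% of all genes higher at that level. The median log2 difference of the 10 genes was 0.50, against 0.02 over all genes tested. Since the 10 genes were chosen with earlier results of these data known, these shares and medians describe the set and do not test it. At day 4, no member was called by edgeR's quasi-likelihood test, by DESeq2 or by limma-voom, which called 0.139%, 7% and 10.7% of all genes. None had an unadjusted p below 0.05 at day 4, against 19.2% of all genes. The plot of log2 differences shows both days side by side.

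**Figure D1:**
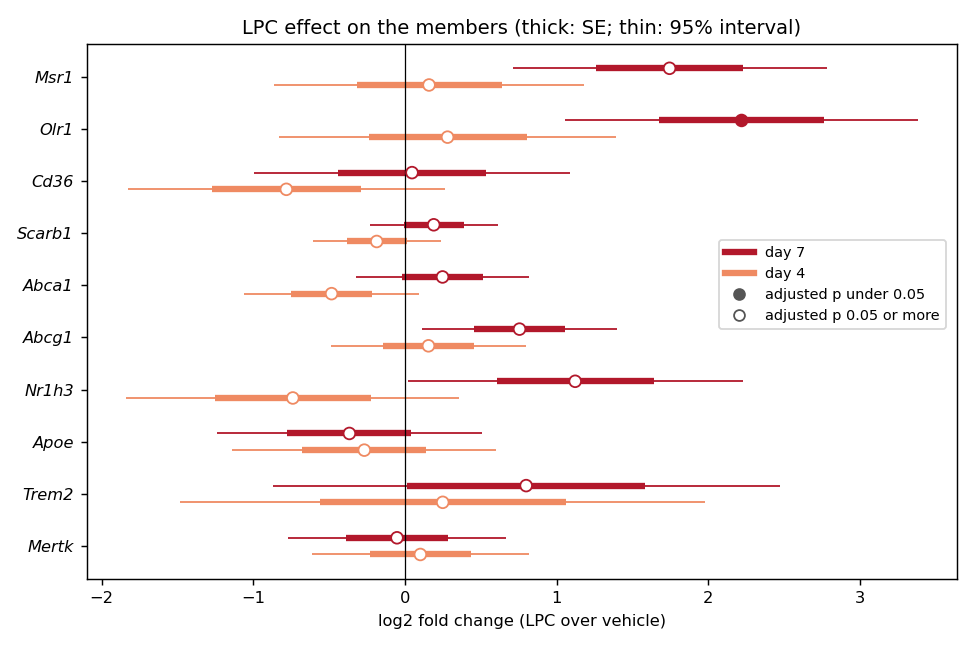
Log2 fold change of LPC over vehicle for each member (horizontal axis) at day 7 and day 4, with thick bars for the standard error and thin bars for the 95% interval of the edgeR model. Olr1 at day 7 (2.22) is the single filled point, and Msr1 at day 7 (1.74) is the next largest.

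Olr1 encodes LOX-1, a receptor for oxidised low-density lipoprotein, and lies on chromosome 6 (chr6:129479150-129507350, GRCm38, Entrez gene 108078). At day 7, mice 1 to 4 had 2.71, 1.36, 3.69 and 0.99 CPM with LPC, against 0.68, 0.21, 0.63 and 0.34 CPM with vehicle. Every LPC mouse was above every vehicle mouse, as was so for 5.7% of all genes in the higher direction. The log2 difference was 2.22 ± 0.54 (SE), a 4.66-fold difference (adjusted p = 0.0387, edgeR's quasi-likelihood test, 4 mice a group), and the two-sided exact permutation p over the 4 against 4 mice was 0.0286, the smallest that design can give. Olr1 was the scarcest member, with 19.1 to 68.0 expected counts at day 7 with LPC and 3.91 to 13.02 with vehicle, so the call rests on few reads. At day 4, mice had 1.82, 0.49, 0.57 and 1.53 CPM with LPC, against 1.16, 0.94, 0.53 and 0.98 CPM with vehicle. The day 4 groups overlapped, with a log2 difference of 0.28 ± 0.52 (adjusted p = 0.803). The day 7 call was lost when any of 8 libraries was left out: vehicle day 4 mouse 1 or 2, any of the 4 vehicle day 7 mice, or LPC day 7 mouse 1 or 3. Adjusted p then ran up to 0.12, while the log2 difference stayed between 1.84 and 2.46 over all 16 such fits. It was also lost with limma-voom (1.62, adjusted p = 0.171), which called 1.13% of all genes, and with the 2 groups fitted alone (2.22, adjusted p = 0.096).

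Msr1 encodes the class A macrophage scavenger receptor and lies on chromosome 8 (chr8:39543232-39642750, Entrez gene 20288). At day 7, mice 1 to 4 had 30.04, 85.7, 32.3 and 75.8 CPM with LPC, against 17.6, 14.0, 20.7 and 14.6 CPM with vehicle. All 4 LPC mice were above all 4 vehicle mice, as was so for 5.7% of all genes in the higher direction. Mice 2 and 4 were the high ones. The log2 difference was 1.74 ± 0.49 with a 95% interval of 0.71 to 2.78 (adjusted p = 0.058, edgeR's quasi-likelihood test). The exact permutation p was 0.0286, which any gene without overlap between the groups has. DESeq2, which called 9.18% of all genes, gave 1.77 with adjusted p = 0.00514. At day 4, mice had 9.77, 5.13, 11.4 and 21.8 CPM with LPC, against 6.19, 5.29, 11.8 and 19.8 CPM with vehicle, so the groups overlapped almost fully. The day 4 log2 difference was 0.16 ± 0.48 (adjusted p = 0.885).

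Cd36, a class B scavenger receptor that also imports fatty acids (chr5:17781690-17888959, Entrez gene 12491), had 40.3, 125, 43.5 and 265 CPM in LPC mice 1 to 4 at day 7, against 102, 76.9, 128 and 152 CPM with vehicle. LPC mice 1 and 3 were below all vehicle mice, and mouse 4 was above them. Cd36 thus differed by a log2 value of 0.05 ± 0.49 (95% interval -0.99 to 1.08, adjusted p = 0.972), and it was -0.72 without LPC mouse 4. At day 4 it had 94.0, 157, 179 and 66.9 CPM with LPC, against 234, 183, 219 and 219 CPM with vehicle. There all LPC mice were below all vehicle mice, as was so for 8.67% of all genes in the lower direction. The day 4 difference was -0.78 ± 0.49 (95% interval -1.83 to 0.26, adjusted p = 0.402, edgeR's quasi-likelihood test) and did not pass the test. Muscle markers summed to between 202 and 2030 FPKM in LPC mice and between 2500 and 23900 FPKM in vehicle mice at day 4, and adipocyte markers to between 165 and 543 FPKM in LPC mice and between 432 and 1760 FPKM in vehicle mice. With the muscle marker score as a covariate, the day 4 difference of Cd36 was 0.15. With the adipocyte marker score as a covariate it kept its negative sign. The muscle score (mean log2 CPM) itself ran from 3.4 to 7.38 with LPC and from 6.69 to 10.8 with vehicle at day 4. Muscle content and LPC can thus hardly be told apart there, and the part of tissue makeup was not tested.

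Scarb1, the receptor for high-density lipoprotein (chr5:125277087-125341094, Entrez gene 20778), did not pass the test on either day. At day 7 it had 95.8, 92.5, 65.4 and 103 CPM with LPC, against 77.7, 63.5, 73.9 and 97.9 CPM with vehicle. The groups overlapped, and the log2 difference was 0.19 ± 0.20 (95% interval -0.23 to 0.61). At day 4 it had 60.8, 64.2, 70.6 and 43.5 CPM with LPC, against 55.9, 86.7, 74.2 and 55.2 CPM with vehicle, a difference of -0.19 ± 0.20 (95% interval -0.61 to 0.24). Adjusted p was 0.664 at day 7 and 0.634 at day 4.

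**Figure D2:**
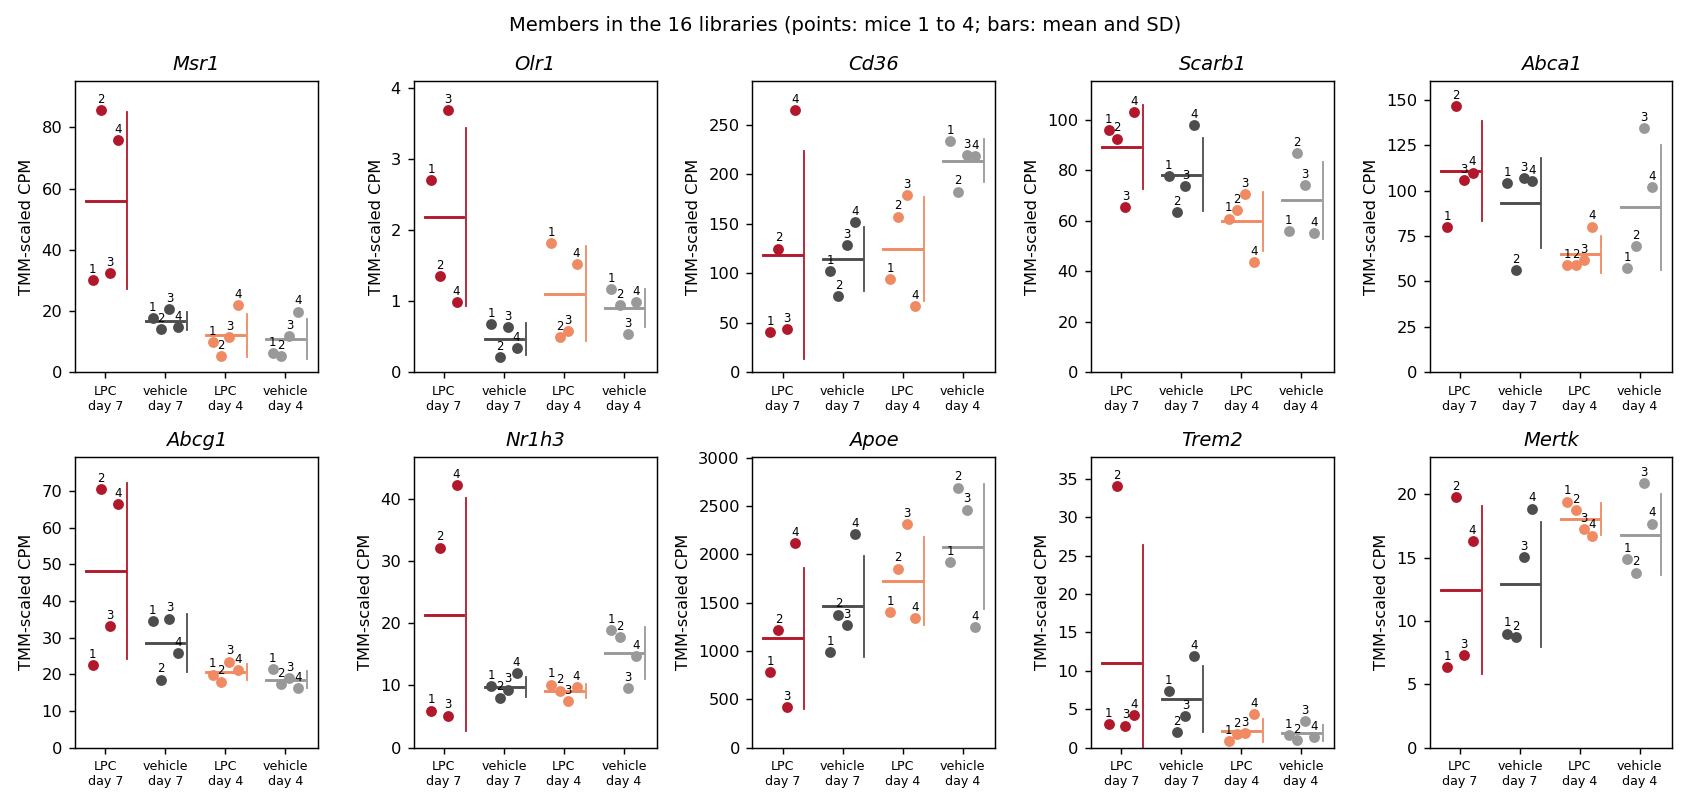
TMM-scaled CPM of each member (vertical axes, starting at 0) in the 16 libraries by group, with points for mice 1 to 4 and bars for the mean and SD. In Msr1 and Olr1 the 4 LPC day 7 mice lie above the 4 vehicle day 7 mice, and in Msr1, Abcg1 and Nr1h3 LPC day 7 mice 2 and 4 lie apart from mice 1 and 3.

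No efflux gene passed the test on either day. Abcg1, Nr1h3 and Abca1, but not Apoe, were above all vehicle mice in LPC mice 2 and 4 at day 7. These mice were grouped after their values were seen, and the share of all genes that do so was not computed. Abcg1, which exports cholesterol to high-density lipoprotein (chr17:31057694-31117984, Entrez gene 11307), had 22.6, 70.5, 33.1 and 66.5 CPM in LPC mice 1 to 4 at day 7, against 34.5, 18.6, 35.2 and 25.9 CPM with vehicle. Mice 2 and 4 were above all vehicle mice, and mice 1 and 3 were within the vehicle range. The log2 difference was 0.76 ± 0.30 (95% interval 0.11 to 1.40, adjusted p = 0.176, edgeR's quasi-likelihood test). At day 4 it was 0.15 ± 0.30 (adjusted p = 0.814), with 20.7 ± 2.30 CPM with LPC and 18.6 ± 2.27 CPM with vehicle (SD, n = 4 each).

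Nr1h3, which encodes LXR-alpha (chr2:91184061-91202829, Entrez gene 22259), was split in the LPC day 7 group. LPC mice 1 to 4 had 5.96, 32.2, 5.16 and 42.1 CPM at day 7, against 9.95, 8.04, 9.33 and 11.9 CPM with vehicle. Mice 2 and 4 were above all vehicle mice, and mice 1 and 3 were below all of them. Over all 4 mice the log2 difference was 1.12 ± 0.52 (adjusted p = 0.244). At day 4 the level was 10.1, 9.19, 7.53 and 9.72 CPM with LPC, against 18.9, 17.8, 9.62 and 14.7 CPM with vehicle. The day 4 groups overlapped in 1 vehicle mouse, mouse 3, and the difference was -0.74 ± 0.52 (adjusted p = 0.449). With the muscle score as a covariate it was 0.89, with the limit given for Cd36. Nr1h3 overlaps Acp2 and Gm23390 in the RefSeq annotation, so reads shared with them cannot be told apart without a strand setting, and no source used here gives it. The same holds for Olr1 with Gm45969 and for Scarb1 with Gm32701.

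Abca1, which loads cholesterol onto lipid-poor apolipoproteins (chr4:53030789-53159988, Entrez gene 11303), carries the LXR element printed above. At day 7 it had 79.9, 147, 106 and 110 CPM in LPC mice 1 to 4, against 104, 56.2, 107 and 105 CPM with vehicle. At day 4 it had 58.8, 58.7, 61.7 and 80.2 CPM with LPC, against 57.2, 69.5, 134 and 102 CPM with vehicle. LPC mice 2 and 4 were above the day 7 vehicle range, by little in mouse 4. The groups overlapped on both days, and Abca1 differed by a log2 value of 0.25 ± 0.27 at day 7 (adjusted p = 0.678) and -0.48 ± 0.27 at day 4 (95% interval -1.06 to 0.09, adjusted p = 0.344).

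Apoe, the apolipoprotein that carries exported cholesterol (chr7:19696244-19701310, Entrez gene 11816), was the most abundant member by far. LPC mice 1 to 4 had 779.6, 1220, 421 and 2115 CPM at day 7, against 989, 1378, 1273 and 2208 CPM with vehicle. Mice 1 and 3 were below all vehicle mice. On the log2 scale Apoe differed by -0.37 ± 0.41 at day 7 (adjusted p = 0.689) and -0.27 ± 0.41 at day 4 (adjusted p = 0.754). The day 4 means were 1728 ± 456 CPM with LPC and 2080 ± 645 CPM with vehicle (SD, n = 4 each).

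Neither phagocyte receptor passed the test with LPC. Trem2, which signals through the adaptor encoded by Tyrobp (chr17:48346401-48352276, Entrez gene 83433), had 3.07, 34.0, 2.88 and 4.20 CPM in LPC mice 1 to 4 at day 7, against 7.35, 2.01, 4.16 and 11.9 CPM with vehicle. Mouse 2 was far above the other 3 LPC mice, and the log2 difference of 0.80 ± 0.78 (adjusted p = 0.638) was -0.92 without it. At day 4, means were 2.24 ± 1.49 CPM with LPC and 1.88 ± 1.07 CPM with vehicle (SD, n = 4 each), a log2 difference of 0.25 ± 0.81 (adjusted p = 0.893). Mertk (chr2:128698915-128803162, Entrez gene 17289) had 6.38, 19.8, 7.34 and 16.3 CPM with LPC at day 7, against 9.01, 8.71, 15.1 and 18.9 CPM with vehicle. Its LPC mice 1 and 3 were below all vehicle mice, and mouse 2 was above them. Mertk differed by a log2 value of -0.05 ± 0.34 at day 7 (95% interval -0.77 to 0.67, adjusted p = 0.955) and 0.10 ± 0.34 at day 4 (adjusted p = 0.894).

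The split between LPC day 7 mice 2 and 4 and mice 1 and 3 ran through marker genes of several cell types, as the heat map of the day 7 mice shows. The 14 macrophage markers, such as Adgre1, Csf1r and C1qa, summed to 243, 1959, 246 and 1072 FPKM in LPC mice 1 to 4, against 676, 387, 735 and 946 FPKM with vehicle. The 5 monocyte markers summed to 86.0, 280.4, 82.3 and 458 FPKM, against 79.1, 34.4, 95.9 and 28.7 FPKM with vehicle. The 9 neutrophil markers, such as S100a8 and Ly6g, ran the other way within the LPC group, with 20680, 11980, 26630 and 9445 FPKM, against 10540, 10050, 7319 and 461 FPKM with vehicle. Such a sum follows its most abundant genes and is no count of cells. The list's mean log2 CPM was 7.69, 6.30, 7.49 and 5.55 in LPC mice 1 to 4. Of its 8 tested markers, 1 rose with LPC at day 7, where 2.38% of all genes rose. Msr1, Abcg1, Nr1h3, Abca1, Cd36, Apoe, Trem2 and Mertk were each higher in mice 2 and 4 than in mice 1 and 3. Olr1 was lower, and Scarb1 did not divide that way. The mice were grouped like this after their values were seen. The share of all genes that divide them so was not computed, so this is a description only. Adipocyte and muscle markers were also higher in mice 2 and 4. Adipocyte sums were 65.1, 1086, 199 and 4187 FPKM in LPC mice 1 to 4, against 174 to 938 FPKM with vehicle, and muscle sums were 586, 9790, 221 and 11370 FPKM, against 1530 to 6610 FPKM with vehicle. No marker of these lists was at 0 in all 4 mice of either day 7 group, and Fcnb, a monocyte marker, was at 0 in all mice of both day 4 groups. With the macrophage score as a covariate, the day 7 LPC difference was 1.5 for Msr1 (adjusted p = 0.0126) and 2.12 for Olr1 (adjusted p = 0.0269, edgeR's quasi-likelihood test). The macrophage score itself ran from 4.39 to 7.15 in LPC mice and from 4.76 to 5.78 in vehicle mice at day 7. The part of macrophage content in these 2 differences, and of neutrophil content in that of Olr1, was not tested.

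**Figure D3:**
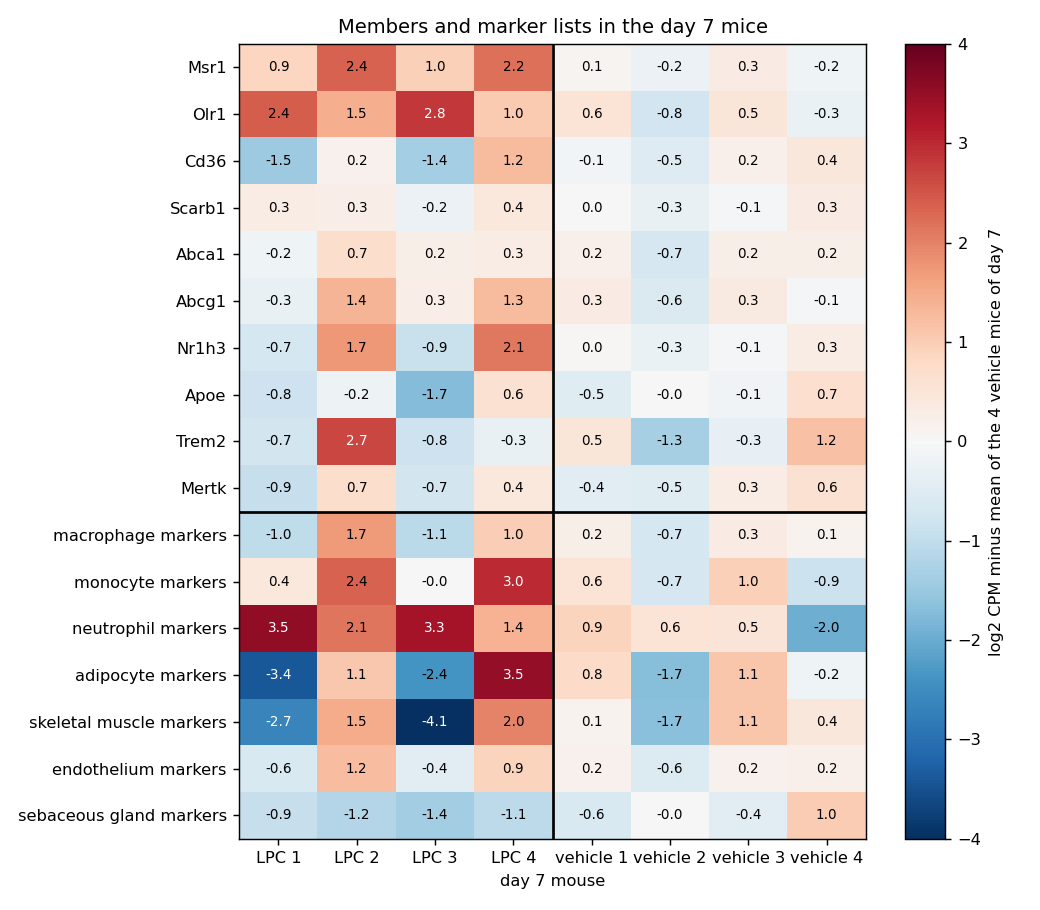
Log2 CPM of the members and mean log2 CPM of marker lists in the 8 day 7 mice, each as the difference from the mean of the 4 vehicle mice (colour scale, log2 units). LPC mice 2 and 4 are the high ones for macrophage and monocyte markers and for Msr1, Abcg1 and Nr1h3, while LPC mice 1 and 3 are highest for neutrophil markers and Olr1.

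Day 7 was also compared with day 4 within each treatment. These comparisons share mice with those above, so they are not separate evidence. With LPC, Msr1 and Abcg1 rose, and 2 of the 10 genes were called, against 11% of all genes tested, or 6.87% in the higher direction. Msr1 averaged 55.9 ± 28.9 CPM at day 7 and 12.01 ± 7.03 CPM at day 4 (SD, n = 4 each), without overlap, as 8.85% of all genes were in that direction. The log2 difference was 2.22 ± 0.49 (adjusted p = 0.0156, edgeR's quasi-likelihood test). Abcg1 averaged 48.2 ± 23.9 CPM at day 7 and 20.7 ± 2.30 CPM at day 4, a log2 difference of 1.22 ± 0.30 (adjusted p = 0.0244), with 1 day 7 mouse inside the day 4 range. The Msr1 call was lost without LPC day 4 mouse 2 or 3 (adjusted p = 0.05 and 0.0519), and the Abcg1 call without LPC day 4 mouse 1, 2 or 3 or LPC day 7 mouse 2 or 4 (up to 0.0729). With the macrophage score as a covariate, the differences were 0.98 for Msr1 (adjusted p = 0.10) and 0.27 for Abcg1 (adjusted p = 0.456), and neither was called. That score ran from 4.39 to 7.15 at day 7 and from 3.38 to 4.54 at day 4 in LPC mice. Macrophage content and day can thus hardly be told apart, and the part of either was not tested. The macrophage markers summed to between 243 and 1960 FPKM in LPC mice at day 7 and between 191 and 346 FPKM at day 4.

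Scarb1 (0.58 ± 0.20, adjusted p = 0.0704), Abca1 (0.77 ± 0.27, adjusted p = 0.0745) and Trem2 (2.30 ± 0.82, adjusted p = 0.0789) missed the threshold in the same edgeR comparison of LPC mice, and DESeq2 called all of them beside Msr1 and Abcg1, and 19.5% of all genes. Nr1h3 differed by 1.22 ± 0.52 (adjusted p = 0.125) and Olr1 by 0.99 ± 0.51 (adjusted p = 0.203). Mertk, Apoe and Cd36 had log2 differences of -0.54 ± 0.34, -0.61 ± 0.41 and -0.07 ± 0.49, with adjusted p between 0.294 and 0.937. With vehicle, none of the 10 genes was called and 0% of all genes were, while 1 member, Trem2, had an unadjusted p below 0.05 and was higher at day 7, against 7.32% of all genes. Trem2 averaged 6.35 ± 4.29 CPM at day 7 and 1.88 ± 1.07 CPM at day 4 with vehicle (SD, n = 4 each), a log2 difference of 1.75 ± 0.82 (adjusted p = 0.382). Cd36 averaged 115 ± 32.3 CPM at day 7 and 214 ± 21.8 CPM at day 4 with vehicle, without overlap, as 2.76% of all genes were in that direction. Its log2 difference was -0.90 ± 0.49 (adjusted p = 0.458), and it did not pass the test. DESeq2 called no member with vehicle and 1.41% of all genes. There limma-voom called 15.8% of all genes, and of the members Abcg1 (0.80, adjusted p = 0.0437), for which edgeR gave 0.62 ± 0.30 (adjusted p = 0.399). Log2 differences with vehicle were 0.63 ± 0.48 for Msr1, 0.20 ± 0.20 for Scarb1 and 0.04 ± 0.27 for Abca1. They were -0.95 ± 0.55 for Olr1, -0.64 ± 0.51 for Nr1h3, -0.51 ± 0.41 for Apoe and -0.38 ± 0.34 for Mertk, and adjusted p of these 7 lay between 0.485 and 0.965 (edgeR's quasi-likelihood test).

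Averaged over both days, LPC moved no member past the threshold in edgeR's quasi-likelihood test, where 4.07% of all genes were called. Olr1 differed by 1.25 ± 0.38 (adjusted p = 0.069), Msr1 by 0.95 ± 0.34 (adjusted p = 0.109) and Abcg1 by 0.45 ± 0.21 (adjusted p = 0.203), and these 3 had an unadjusted p below 0.05, all higher, against 12.9% of all genes higher. The other 7 lay between -0.37 and 0.52, with adjusted p from 0.517 to 0.996. DESeq2 called Olr1 (adjusted p = 0.024) and Msr1 (adjusted p = 0.0415), and 11.4% of all genes. Whether LPC acted differently on the 2 days (its day 7 difference minus its day 4 difference) was tested by itself, and this was called for no member and for 0% of all genes. The value was 1.94 ± 0.75 for Olr1 (adjusted p = 0.216), 1.86 ± 0.73 for Nr1h3 (adjusted p = 0.22) and 1.58 ± 0.68 for Msr1 (adjusted p = 0.257). These 3 had an unadjusted p below 0.05, against 10.8% of all genes with a positive value, and DESeq2 and limma-voom called none of the 10, and 3.71% and 0.057% of all genes. The other 7 values lay between -0.15 and 0.83, with adjusted p from 0.337 to 0.946. The LPC differences of Olr1 and Msr1 at day 7 are thus not shown to differ from those at day 4.

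Levels between genes were compared per length, in FPKM. Apoe was first in every group, with 866 ± 581 FPKM with LPC and 1205 ± 492 FPKM with vehicle at day 7, and 1423 ± 381 FPKM with LPC and 1740 ± 545 FPKM with vehicle at day 4 (SD, n = 4 each). Cd36 and Scarb1 followed in every group. Cd36 had 40.2 ± 36.2 FPKM with LPC and 41.3 ± 12.8 FPKM with vehicle at day 7, where its range overlapped that of Scarb1 (33.0 ± 6.43 and 31.4 ± 6.91 FPKM). Olr1 was last in every group, with 0.58 ± 0.33 FPKM with LPC and 0.14 ± 0.06 FPKM with vehicle at day 7, below the range of its neighbour each time. At day 4 both treatments had the same order, with Abca1, Nr1h3, Mertk, Msr1, Abcg1 and Trem2 between Scarb1 and Olr1, and ranges of neighbours overlapped from Mertk to Trem2 in both, between Cd36 and Scarb1 with LPC, and between Abca1 and Nr1h3 with vehicle. Msr1 was the fourth in LPC mice at day 7 (18.5 ± 10.1 FPKM) and the sixth in vehicle mice (5.52 ± 1.03 FPKM). In LPC mice at day 7, every neighbouring pair of ranges from Cd36 down to Mertk overlapped, so that order does not hold beyond the spread between mice.

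The other genes of these pathways were taken from 6 lists, and the plot of related lists shows them beside the members. Like the members, the lists were chosen with earlier results of these data known. Their counts and medians thus describe the lists and do not test them. The list of partners of TREM2 and of MERTK's family (the TAM receptors) and of engulfment genes held the most calls. At day 7, 5 of 21 tested genes rose with LPC and none fell, where 2.38% of all genes rose and 3.83% were called, with a median log2 difference of 0.23, against 0.02 over all genes. Spi1, which encodes the myeloid transcription factor PU.1, rose by 1.59 ± 0.30 (adjusted p = 0.0169, edgeR's quasi-likelihood test). Syk, the kinase that couples TREM2's adaptor to its signal, rose by 1.91 ± 0.38 (adjusted p = 0.0203), and Tyrobp, the adaptor itself, by 1.45 ± 0.32 (adjusted p = 0.0268). Treml2, a relative of Trem2, rose by 3.02 ± 0.62 (adjusted p = 0.0223). The fifth was Itgb3, an integrin subunit (0.89 ± 0.20, adjusted p = 0.0289). All 5 were named for their values, the other 4 as the genes of smallest p in the list. The TAM part of the list was not called: Axl differed by 0.08 ± 0.14, Tyro3 by -0.30 ± 0.16, Gas6 by -0.16 ± 0.35 and Pros1 by 0.0006 ± 0.22. Of engulfment genes, Mfge8 (-0.08), Dock1 (0.03), Gulp1 (-0.16), Itgav (0.51) and Elmo1 (0.61) were not called either. Spi1, Syk and Tyrobp are made by neutrophils and other myeloid cells too, and neutrophil markers summed to between 9450 and 26600 FPKM with LPC and between 461 and 10500 FPKM with vehicle at day 7. Their part in these rises was not tested. Without vehicle day 7 mouse 2 or 4, 0 of the 21 genes were called, without LPC day 7 mouse 1, 1 was, and without vehicle day 7 mouse 3, 3 were.

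**Figure D4:**
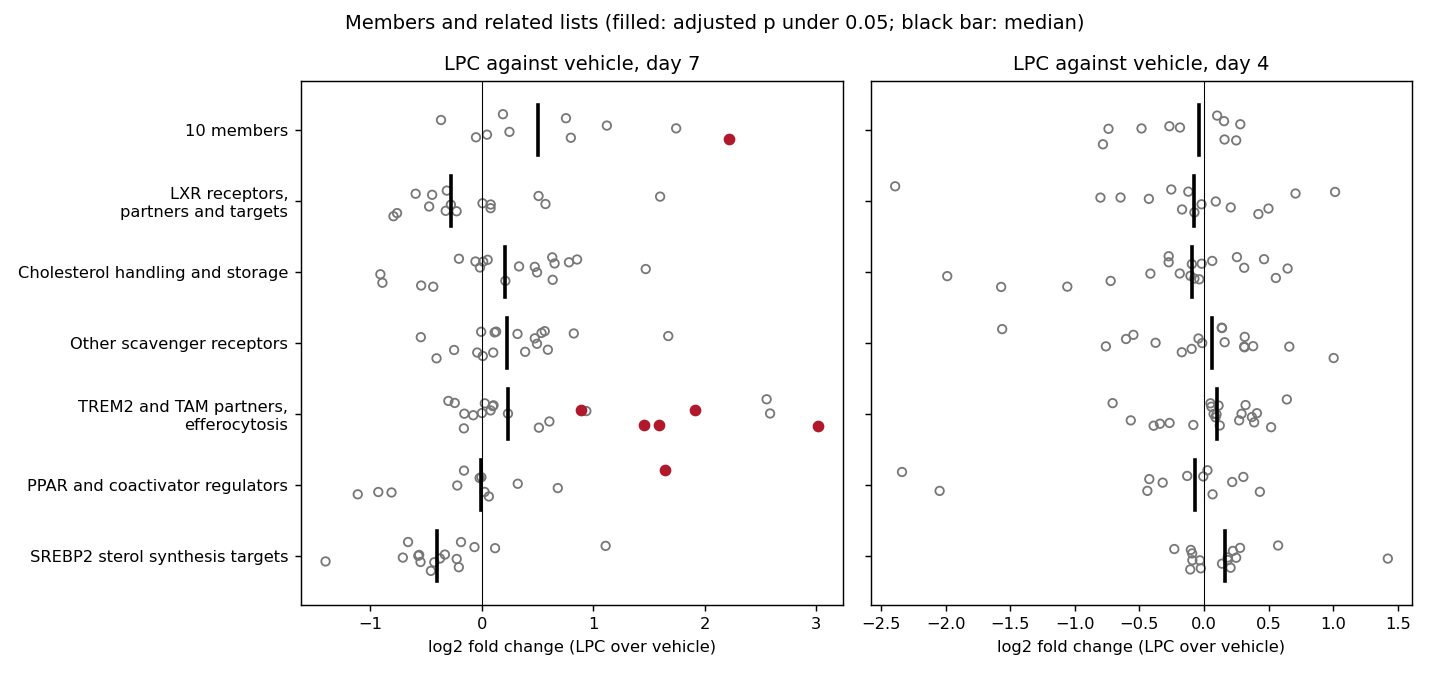
Log2 fold change of LPC over vehicle at day 7 (left) and day 4 (right) for the members and 6 related lists, with a circle per gene, filled where the adjusted p was below 0.05, and a black bar at each list's median. At day 7 the filled circles are Olr1, 5 genes of the TREM2 and TAM list and Angptl4, and at day 4 there are none.

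Neither receptors, partners and targets of LXR (15 tested), nor cholesterol handling genes (19 tested), nor other scavenger receptors (18 tested) held a call at day 7. DESeq2 called 1, 4 and 1 of them, against 9.18% of all genes, and limma-voom 0, 1 and 0, against 1.13%. In the edgeR test 2, 8 and 4 had an unadjusted p below 0.05, against 19.7% of all genes, and the median log2 differences were -0.28, 0.21 and 0.22. Of the LXR list, Apoc1, an apolipoprotein gene next to Apoe, differed by -0.76 ± 0.22 (adjusted p = 0.0656), Nr1d1 by -0.59 ± 0.24, Srebf1 by -0.45 ± 0.22 and Mylip, a ubiquitin ligase gene, by -0.47 ± 0.23 (adjusted p between 0.187 and 0.283). Of the cholesterol handling genes, Gramd1a, a sterol transporter, differed by 0.65 ± 0.18 (adjusted p = 0.0522), and Ch25h, which makes an oxysterol, by 1.47 ± 0.50 (adjusted p = 0.11). Lrp1 differed by 0.48 ± 0.15 (adjusted p = 0.0888) and Abca2 by -0.54 ± 0.18 (adjusted p = 0.11). Among other scavenger receptors, Cxcl16 differed by 0.56 ± 0.19 (adjusted p = 0.113), Cd68 by 0.83 ± 0.34 (adjusted p = 0.191) and Clec7a, the beta-glucan receptor, by 1.67 ± 0.74 (adjusted p = 0.221).

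Of 12 PPAR genes, 1 rose with LPC at day 7, where 2.38% of all genes rose and 3.83% were called. It was Angptl4, an inhibitor of lipoprotein lipase, which rose by 1.65 ± 0.36 (adjusted p = 0.0256, edgeR's quasi-likelihood test). That call was lost without LPC day 7 mouse 1 and without each of the vehicle day 7 mice. Ppara differed by -1.11 ± 0.44 (adjusted p = 0.167) and Ppard by 0.68 ± 0.28 (adjusted p = 0.191). The 16 sterol synthesis genes controlled by SREBP2 held no call, with a median of -0.40. DESeq2 called 1 and limma-voom 0, against 9.18% and 1.13% of all genes. In the edgeR test 5 had an unadjusted p below 0.05, 1 higher and 4 lower, against 19.7% of all genes.

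At day 4, none of the 6 lists held a call in edgeR's quasi-likelihood test, while DESeq2 called 4 of their genes, in 2 lists, against 7% of all genes, and limma-voom 12, in 5 lists, against 10.7%. Those with an unadjusted p below 0.05 numbered 4 of the LXR list, 5 of cholesterol handling, 2 of scavenger receptors, 3 of the TREM2 and TAM list, 2 of PPAR and 2 of sterol synthesis, where 19.2% of all genes had one. The list medians lay between -0.09 and 0.16, against 0.00 over all genes (0.00278). Lpl, lipoprotein lipase, differed by -1.99 ± 0.59 (adjusted p = 0.0879) and Pdk4, which turns fuel use towards fatty acids, by -2.34 ± 0.72 (adjusted p = 0.103). Ppargc1a, a coactivator of oxidative metabolism, differed by -2.05 ± 0.68 (adjusted p = 0.122), and the LXR target Smpdl3a by -0.80 ± 0.26 (adjusted p = 0.111). Other genes of these lists had positive differences. Arl4c, also an LXR target, differed by 0.71 ± 0.24 (adjusted p = 0.124), Itgav, an integrin subunit, by 0.64 ± 0.21 (adjusted p = 0.117), and the hyaluronan receptor gene Cd44 by 1.00 ± 0.38 (adjusted p = 0.169). Muscle and adipocyte markers were lower in the LPC mice of day 4, as given for Cd36. With the muscle score as a covariate, the differences were -0.34 for Lpl, -0.05 for Pdk4, -0.17 for Ppargc1a and -0.09 for Smpdl3a, and 0.43 for Arl4c, 0.44 for Itgav and 0.77 for Cd44. The limit given for Cd36 holds here too, and the part of tissue makeup was not tested.

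With LPC, day 7 against day 4 gave calls in 5 of the 6 lists, and genes named here for them were picked after their values were seen. Over all genes, 6.87% rose and 11% were called. In the TREM2 and MERTK list 7 of 21 rose, led by Spi1 (2.09 ± 0.31, adjusted p = 0.00319) and Tyrobp (2.13 ± 0.33, adjusted p = 0.00346). Of cholesterol handling genes 4 of 19 rose and none fell: the lysosomal genes Lipa (1.14 ± 0.27) and Npc2 (1.11 ± 0.28), which free and pass on cholesterol from lipoproteins, Lpl (2.07 ± 0.59) and Lrp1 (0.49 ± 0.15), which stands in the scavenger receptor list too. In the LXR list Pltp (1.98 ± 0.61) and Smpdl3a (0.97 ± 0.26) rose and Apoc1 fell by 0.95 on the log2 scale. Of other scavenger receptors Cd68 (1.41 ± 0.35) and Lrp1 rose, while Scara3 fell by 1.13. Fabp5 was the call among PPAR genes (1.25 ± 0.35), and the sterol synthesis list held none, with 4 genes lower at an unadjusted p below 0.05, against 12.9% of all genes.

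For each member, the genes of most similar pattern were the 3 with the highest Pearson correlation of log2 CPM over the 16 libraries, among 13560 genes of sufficient level. These are descriptions, since the libraries share their group, their tissue makeup and their scaling. Abcg1 was closest to Grn (r = 0.944), which encodes progranulin, the cholesteryl ester hydrolase gene Lipa (0.933) and the cathepsin gene Ctss (0.930). Msr1 was closest to Zeb2 (0.959), Naip2 (0.954) and Arhgap30 (0.953). Nr1h3 was closest to Cyp4v3 (0.938), Dennd1a (0.924) and Nicn1 (0.924), and Abca1 to Lpar6 (0.864), Mctp1 (0.861) and Sfxn5 (0.847). Cd36 was closest to Txnip (0.956), Glb1l2 (0.953) and Ces1d (0.951), and Apoe to Bcat2 (0.962), Fam117a (0.938) and Tdrp (0.937). Olr1 was closest to Chst11 (0.921), Traf1 (0.910) and Tubb2b (0.901). Scarb1 was closest to Rab1b (0.856), Mknk1 (0.824) and Tmem9 (0.814), Trem2 to Cthrc1 (0.916), Stx2 (0.912) and P3h3 (0.908), and Mertk to Ppp4r4 (0.941), Osbpl6 (0.905) and Phka2 (0.902).

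Between the members, the highest correlations over the 16 libraries were those of Abcg1 with Msr1 (r = 0.814) and of Apoe with Cd36 (0.802), and the lowest that of Apoe with Olr1 (-0.630). Against marker scores, Abcg1, Trem2, Msr1 and Abca1 had r of 0.818, 0.794, 0.758 and 0.757 with the macrophage markers. Another list was closer for Trem2 (0.859 with fibroblast markers) and for Abcg1 and Msr1 (0.827 and 0.805 with monocyte markers). With the fibroblast markers, Abcg1, Msr1 and Abca1 had 0.785, 0.741 and 0.699. Nr1h3 had 0.868 with the endothelial and 0.828 with the adipocyte markers, and Cd36 had 0.756 with the adipocyte markers. Olr1 had 0.717 with the neutrophil markers and -0.09 with the macrophage markers. Apoe had -0.713 with the neutrophil and 0.737 with the sebaceous gland markers.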

How the data were processed

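RNA of 16 ear skin lesions, 1 per mouse, was sequenced on a BGISEQ-500, aligned to GRCm38 with Bowtie2 and quantified with RSEM by the authors, per the labels' protocols; Bowtie2 and GRCm38 also stand in the submitters' processing notes. No source used here gives versions, annotation or a strand setting. The authors deposited an expected count and an FPKM value per gene and library; RSEM shares reads between similar genes by a model. Genes absent from a file were set to 0. Groups and mouse numbers came from the sample titles, since the days in the file names differ.

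Expected counts were rounded to whole numbers. filterByExpr kept 15782 genes and removed 3657, TMM factors ran from 0.836 to 1.107, and an edgeR 4.0.16 (R 4.3.3) quasi-likelihood model took 1 mean for each group over the 16 libraries (12 residual degrees of freedom, biological coefficient of variation 35%). The 6 comparisons were adjusted by Benjamini-Hochberg over all genes tested. Standard errors are the log2 fold change divided by the square root of F. A gene with no counts in a library could be present at up to 3 counts (0.145 to 0.181 CPM), which covers counting error only. Within groups, libraries differed by more than sampling noise (mean chi-square per gene at least 16.16). Log2 CPM used a prior count of 2. Marker scores are mean log2 CPM of a list, and marker sums are FPKM. Of 220 list symbols 218 matched. Each of the 10 genes was named in the comparisons between 2 groups, and in the other comparisons those with an unadjusted p below 0.05, with the rest as a range. Beside them stand genes among the up to 4 of smallest p in each related list per day, and the 3 most correlated genes per member, taken from genes whose mean log2 CPM was 1 or more. Members, lists and this rule were chosen with earlier results of these data known. The test was checked on simulated counts. Alternatives were RLE size factors, no filter, a filter of 1 CPM in 8 libraries, DESeq2 1.42.0, limma 3.58.1 (voom with sample weights, and log2(FPKM + 0.1) or log2(FPKM + 1)), only the groups compared, a replicate block, 3 marker scores as covariates and leaving out each library. Some genes that this rule on named genes would have given are not reported here.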

Additional observations from a re-analysis of the deposited data

Results flagged for a closer look

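The CPM values of the 10 genes and the summed FPKM of the marker lists in each group of 4 mice were examined for a mouse set far apart from the others. This means that its gap to the next mouse exceeded Dixon's 95% critical share of the group's range. Of 88 groups of 4 values, 3 were flagged, and chance alone flags about 1 in 20. Trem2 was highest in LPC day 7 mouse 2, at 34.03 CPM, with 2.88 to 4.20 CPM in the other 3 mice, a gap of 0.957 of the range. Macrophage markers were also highest in that mouse of all 16, at a sum of 1959 FPKM. Abca1 was lowest in vehicle day 7 mouse 2, at 56.22 CPM, with 104 to 107 CPM in the others. Abca1 was highest in LPC day 4 mouse 4, at 80.19 CPM, with 58.7 to 61.7 CPM in the others.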

How the results depend on the processing

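Results are given for 13 alternatives and for leaving out each of the 16 libraries; a cause was not tested unless stated. The count of members called at day 7 was 1 in the main analysis, 2 with DESeq2, with the muscle score and with the macrophage score, and 3 with the adipocyte score. It was 0 with limma-voom, with limma on log2(FPKM + 1) or on all genes, with the 2 groups fitted alone, and with the filter of 1 CPM in 8 libraries, which removed Olr1 from testing. Averaged over both days it was 0, with 2 under DESeq2 and the macrophage score and 1 under the adipocyte score. For day 7 against day 4 it was 2 with LPC (5 with DESeq2, 1 on any FPKM scale, with the 2 groups alone, with the replicate block and with the muscle or macrophage score, the last being Mertk, lower) and 0 with vehicle (1 with limma-voom). Leaving out a library gave 0 to 2 members at day 7, 0 to 1 averaged, 0 to 5 for day 7 against day 4 with LPC, and 0 to 0 for day 4, for vehicle and for the difference between days. Genes called at day 4 numbered 22, and 8 without a filter, 1104 with DESeq2, 1683 with limma-voom, 38, 40 and 47 on the FPKM scales, 1333 with the 2 groups alone, 2 with the replicate block, 0 with the muscle or adipocyte score and 96 with the macrophage score. At day 7 they numbered 604, and 1448 with DESeq2, 178 with limma-voom, 45 with the 2 groups alone, 351 with the replicate block, and 1087, 1362 and 947 with the muscle, macrophage and adipocyte scores. Averaged they numbered 642, and 1792 with DESeq2, 387 with FPKM of all genes, 276 with the replicate block, and 265, 1245 and 289 with those scores. For day 7 against day 4 with LPC they numbered 1736, and 3073 with DESeq2, 799 with limma-voom, 1100 with the 2 groups alone, 901 with the replicate block, 893 with the muscle and 1132 with the macrophage score; with vehicle 0, and 223 with DESeq2, 2489 with limma-voom and 635 with the macrophage score. For the difference between days they numbered 0, and 1 with RLE size factors and with log2(FPKM + 1), 585 with DESeq2, 9 with limma-voom, 2 with FPKM of all genes and 12 with the macrophage score. Leaving out a library gave 0 to 683 genes at day 4, 111 to 712 at day 7, 142 to 1598 averaged, 518 to 2207 and 0 to 205 for day 7 against day 4 with LPC and vehicle, and 0 to 214 for the difference. On log2(FPKM + 0.1) the median of all genes at day 7 was -0.12, and the calls split into 246 higher and 276 lower (376 and 228 in the main analysis), and into 583 higher and 1035 lower for day 7 against day 4 with LPC (1084 and 652). Signs turned as follows, none of the turned values being called. At day 7, Cd36 was -0.20 with limma-voom, -0.46 on log2(FPKM + 0.1) with and without a filter, -0.44 on log2(FPKM + 1), -0.11 with the replicate block, and -0.0333, -0.32 and -0.26 with the muscle, macrophage and adipocyte scores, and Mertk was 0.11 with limma-voom. At day 4, Olr1 was -0.0278 with limma-voom, Ppargc1b 0.094, 0.0735 and 0.094 on the FPKM scales, and with the muscle score Nr1h3 was 0.89, Apoe 0.23, Cd36 0.15, Mlxipl 0.66, Cyp27a1 0.40, Stab2 0.64, Scarf1 0.28, Cpt1a -0.0356 and Sqle -0.33. With the adipocyte score Nr1h3 was 0.28, Apoe 0.11 and Sqle -0.0297. For day 7 against day 4, Nr1h3 with LPC was -0.0101 with the muscle and -0.67 with the macrophage score, Trem2 with LPC -0.20 and Abca1 with vehicle -0.22 with the macrophage score. Leaving out a library turned the sign within these ranges: at day 7 Trem2 -0.92 to 1.29, Cd36 -0.72 to 0.33 and Mertk -0.37 to 0.19; at day 4 Msr1 -0.30 to 0.63, Olr1 -0.067 to 0.53 and Trem2 -0.30 to 0.69; for day 7 against day 4, Abca1 with vehicle -0.13 to 0.28 and Cd36 with LPC -0.84 to 0.22. Mouse numbers were not taken to pair the groups, since the correlation of same-numbered libraries ran from -0.596 to 0.539 over all pairs of groups. Between LPC and vehicle at day 4 it was positive in all 4 pairs (0.0994 to 0.539), over the 0.1 asked of each pair in 3, and 5 of 8 libraries were closest to their own number. The replicate block kept Olr1 at day 7 (adjusted p = 0.048) and lost Abcg1 for day 7 against day 4 with LPC (1.21, adjusted p = 0.0589, edgeR's quasi-likelihood test). The depth limits Olr1 most, with as few as 3.91 expected counts in a library.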
